A study of Mus musculus with 14 samples.

Results

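Aquaporins are membrane channels for water, and a subgroup of them, the aquaglyceroporins, also let glycerol through. Glycerol released from fat reaches the liver in the blood, enters hepatocytes through Aqp9, is phosphorylated by glycerol kinase (Gyk, now named Gk) and is exchanged with the glycolytic intermediate dihydroxyacetone phosphate by the cytosolic glycerol-3-phosphate dehydrogenase Gpd1. The product can be made into glucose or serve as the backbone of triglycerides. The genes described here are 8 in number: the aquaporin genes Aqp1, Aqp4, Aqp7, Aqp8, Aqp9 and Aqp11 and the enzyme genes Gpd1 and Gyk. They were taken by name from the authors' deposited table of the 5-week arrays, which held all 8 among 12903 named genes, with 1 probe set each. They had been selected on the difference between the knockout and control log2 means of that table, so their values are given as a description and without a test.

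RNA was taken from livers of male mice on a background labelled 57/BL6J and hybridised to Affymetrix whole-transcript arrays. At 5 weeks of age, 2 control samples carried floxed miR-122 alleles (miR-122loxP/loxP) and 2 knockout samples had these alleles plus Alb-Cre, in which the albumin promoter drives Cre, so that deletion is directed at cells that express albumin. Floxed alleles were thus common to both groups. The controls' titles call them wild type, while in the series' design text the knockout of this age appears as germ-line. The labels do not say that the samples came from separate mice, so the spread between samples may be technical. Another 10 samples, 5 controls and 5 knockouts at 8 weeks, were not analysed here.

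Hepatocyte markers were bright on all 4 arrays. Their mean log2 signal over 10 genes was 12.9 in both controls and 12.9 and 12.8 in the knockouts. Alb, serum albumin, lay between 13.65 and 13.71. None of the 10 passed the limma test described below, and 1, Asgr1, had an unadjusted p under 0.05 (difference -0.6, adjusted p = 0.0537). The arrays correlated at 0.982 between controls, at 0.992 between knockouts and at 0.955 to 0.960 between genotypes over 14996 probe sets. Each value below is a log2 signal after the authors' normalization (RMA), for which an array's median over all 35556 probe sets was 5.92 to 5.96. Levels of different genes on this scale depend on their probes and were not set against each other. The deletion of miR-122 itself was not checked here.

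Of the 8 genes, Aqp7 had the widest gap between genotypes, at 9.16 times the control level in the knockout. Aqp4 was 2.71 times lower in the knockout. The size of both folds is uncertain, as the controls of Aqp7 and the knockouts of Aqp4 lay under their arrays' median. The controls of Aqp4 lay above that median but under the median of the 14996 named probe sets. The remaining 6 genes, among them the hepatocyte glycerol channel Aqp9 and both enzymes that bring glycerol into metabolism, differed by less than 0.5 on the log2 scale. Both knockout samples lay above both controls for Aqp7, Gpd1 and Aqp1, and below both for Aqp4 and Aqp11, which makes 5 genes without overlap. Over all probe sets of the table, 30.4% lay wholly above, 27.1% wholly below and 57.5% either way, so groups of 2 that do not overlap are common. The median log2 difference over the 8 genes was -0.03, beside 0.0 over all probe sets. A log2 difference beyond 1 in either direction was seen in 2 of the 8 genes and in 3.87% of all probe sets.

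**Figure D1:**
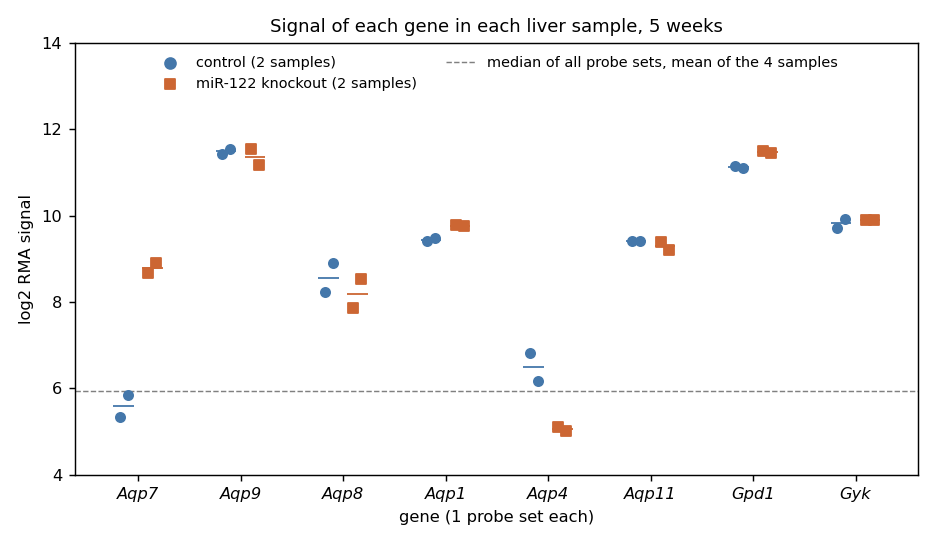
Log2 RMA signal (vertical axis) of each gene (horizontal axis) in the 2 control samples (circles) and the 2 miR-122 knockout samples (squares) at 5 weeks, with a short line at each group's mean and a dashed line at the arrays' median. Aqp7 passes from 5.34 and 5.85 in the controls to 8.68 and 8.9 in the knockouts, Aqp4 drops below the dashed line, and the other genes keep close to their control values. Heights are to be read within a gene.

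Aqp7 encodes an aquaglyceroporin best known as the channel through which fat cells release glycerol. Its log2 signal was 5.34 and 5.85 in the controls and 8.68 and 8.9 in the knockouts. Relative to their array's median, the controls stood at -0.58 and -0.11 and the knockouts at 2.76 and 2.98. The difference of means was 3.195 on the log2 scale (standard error 0.19 from limma, n = 2 a group). Across the 4 ways of setting a knockout against a control, it ran from 2.83 to 3.56. As the control signal is among the dim ones, the size of the fold is uncertain. In bulk liver RNA, more cells of a type and more RNA per cell cannot be told apart.

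The sequence before the start of Aqp7 is shown because a site for the fatty acid-sensing receptors of the PPAR family has been described in the promoter of this gene. Those receptors bind, with RXR, to a direct repeat with 1 base between the repeats, that is AGGTCA, any base, and AGGTCA again. The 250 bases before the annotated starts were searched on both strands for at least 10 of its 12 fixed letters. RefSeq (GRCm38.p6) windows were used for 6 of the 8 genes: Aqp4 was left out, and Gpd1 had no window. Of these 6 only Aqp7 held such a match, in both of its overlapping windows. In the motif's direction the match reads AGGTCAGAGGTGG, and it lies on the strand opposite to the gene, from base -56 to base -44 before the first start. Such a match occurred in 3.24% of 32851 windows of all genes. A match of letters is a description and not evidence of binding. The capitals mark the match in Aqp7. The hepatocyte channel gene Aqp9 is printed beside it for comparison, at its first annotated start, and has no capitals because no stretch of that window reached 10 letters.
Aqp7, chr4:41048137-41048386, minus strand: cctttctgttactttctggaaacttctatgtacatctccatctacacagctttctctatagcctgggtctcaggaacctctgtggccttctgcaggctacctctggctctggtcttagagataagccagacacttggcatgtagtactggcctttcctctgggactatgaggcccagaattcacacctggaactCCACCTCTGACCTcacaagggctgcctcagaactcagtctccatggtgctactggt
Aqp9, chr9:71163290-71163539, minus strand: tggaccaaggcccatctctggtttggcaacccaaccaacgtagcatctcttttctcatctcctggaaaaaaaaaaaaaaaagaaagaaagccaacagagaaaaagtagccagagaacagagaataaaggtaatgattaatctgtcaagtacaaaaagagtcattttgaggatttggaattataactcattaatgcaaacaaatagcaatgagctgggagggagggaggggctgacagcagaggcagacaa
A shorter motif, TGTTTTC, which has been described as an insulin response element of aquaglyceroporin genes, was found on either strand in 6.33% of all windows. Among the 6 genes with windows it occurred only in the window of the second annotated start of Aqp9. The absence of a match says only that these letters are not in this window.

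Aqp9, through which hepatocytes take up glycerol, had log2 signals of 11.43 and 11.55 in the controls and of 11.53 and 11.16 in the knockouts. The first knockout sample lay between both controls and the second lay below them, so the groups overlapped. The difference of means was -0.145 (standard error 0.15, n = 2 a group), and without knockout replicate 2 it was 0.04.

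Gyk, which phosphorylates glycerol and thereby holds it in the cell, had log2 signals of 9.71 and 9.93 in the controls. Both knockout samples read 9.89, between the controls. The difference was 0.07 (standard error 0.12), and it turned to -0.04 without control replicate 1. When each sample was centred on its median over the 14996 named probe sets (7.41 to 7.52), it was -0.005.

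Gpd1 showed little spread within a genotype. Its log2 signal was 11.15 and 11.1 in the controls and 11.49 and 11.45 in the knockouts. The knockouts were 1.27 times higher, with a log2 difference of 0.345 (standard error 0.098), and every pair of samples differed by 0.30 to 0.39, more than the spread between replicates. With each sample centred on its median over the 14996 named probe sets, the difference was 0.27. That shift was larger than the pooled SD of 0.032.

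**Figure D2:**
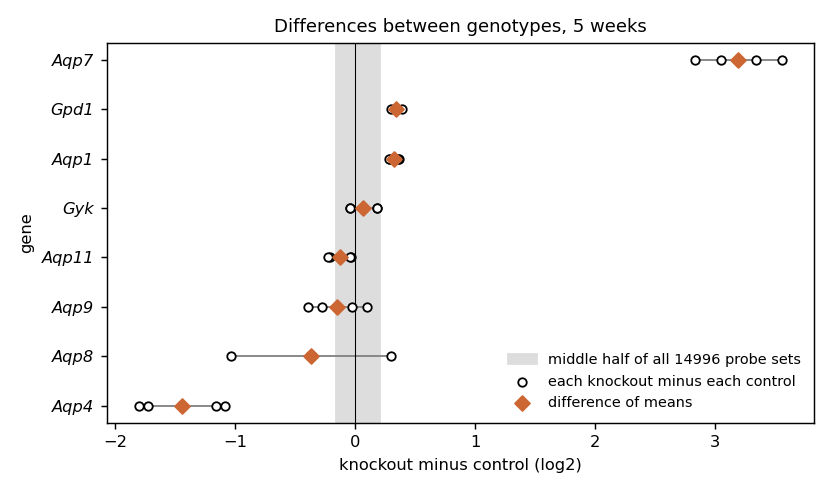
Log2 difference between knockout and control (horizontal axis) for each gene (vertical axis). Open circles are each of the 4 settings of a knockout sample against a control sample, diamonds are the differences of means, and the grey band spans the quartiles of all 14996 probe sets, -0.16 and 0.21. Aqp7 stands at the far right, all 4 values of Aqp4 lie below -1, and the values of Aqp9, Aqp8 and Gyk lie on both sides of 0.

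The water channels differed among themselves. Aqp4, the main water channel of astrocytes, had log2 signals of 6.82 and 6.18 in the controls and of 5.1 and 5.02 in the knockouts. The knockouts were the lower samples in every pair, with differences from -1.8 to -1.08. Relative to their array's median, the controls stood at 0.9 and 0.22 and the knockouts at -0.82 and -0.9. The difference of means was -1.44 (standard error 0.22, n = 2 a group), the 74th lowest of 14996 probe sets. The knockout level lies at the dim end of the arrays, so the size of this difference is uncertain. The controls too lay under their arrays' medians over the named probe sets, 7.46 and 7.41.

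Aqp1, the water channel of red blood cells, endothelium and bile duct cells, had log2 signals of 9.4 and 9.48 in the controls. The knockout samples read 9.77 and 9.76, both above the controls. Its difference of 0.325 (standard error 0.099), 1.25 times the control level, exceeded the spread between replicates. With each sample centred on its median over the 14996 named probe sets, it was 0.25. That shift was larger than the pooled SD of 0.040.

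Aqp8, a water channel of hepatocytes that is known from the bile canaliculus, had the widest spread between replicates of the 8 genes (pooled SD 0.47). Its log2 signals were 8.22 and 8.89 in the controls and 7.86 and 8.52 in the knockouts. The groups overlapped, and the difference of -0.365 (standard error 0.30) became -0.03 without control replicate 2 and -0.7 without control replicate 1. Leaving out a knockout replicate moved it as much, to -0.035 without knockout replicate 1 and to -0.695 without knockout replicate 2.

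Aqp11, an unorthodox aquaporin of the endoplasmic reticulum, had log2 signals of 9.41 and 9.42 in the controls and of 9.38 and 9.2 in the knockouts. Both knockouts were lower, one of them by only 0.03 to 0.04 than either control. The difference was -0.125 (standard error 0.11). It was -0.035 without knockout replicate 2 and -0.215 without knockout replicate 1.

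No gene of the list of other aquaporins passed the test. Of its 6 genes, 4 were in the table, and their log2 differences lay between -0.08 and 0.21 (median -0.02, beside 0.0 over all probe sets). The test used for this and the lists below was limma over all 14996 probe sets with Benjamini-Hochberg adjustment, n = 2 a group. At an adjusted p under 0.05, it called 8.7% of the probe sets higher, 3.27% lower and 12.0% in all. Aqp3, an aquaglyceroporin, had log2 signals of 6.03 and 6.0 in the controls and of 6.27 and 6.17 in the knockouts. Both knockouts lay above the controls, by 0.21 on the log2 scale (adjusted p = 0.255 with limma), against 3.195 for Aqp7. Aqp2, the vasopressin-regulated channel of the kidney, had the same mean in both groups. All 4 measured genes read 6.0 to 6.63, close to the arrays' median of 5.92 to 5.96, so their lack of change says little. At an unadjusted p under 0.05 the limma count for the other aquaporins was also 0, beside 4276 of all 14996 probe sets.

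Among other genes of glycerol handling and its regulators, 5 of 65 measured genes rose and 4 fell with limma. That is 13.8% called beside 12.0% over all probe sets. When the fit held 1 named probe set per gene, as the lists do, limma called 1915 of 12903 genes, and of the listed genes again 5 higher and 4 lower. The share is near the background and says nothing particular about glycerol metabolism. At an unadjusted p under 0.05, limma counted 7 of 15 PPAR targets, 4 of 10 acylation genes and 4 of 10 genes of glucose synthesis. Among the lipase genes it counted 3 of 11, and among the regulators also 3 of 11, beside 4276 of all 14996 probe sets. None of these 65 genes, of 71 listed, was called when any 1 of the 4 samples was left out, nor when the unnamed probe sets of the arrays joined the limma fit, which then called 0 of 35556 (5640 at an unadjusted p under 0.05).

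None of the 4 measured enzymes next to Gpd1 and Gyk passed, and 0 did so at an unadjusted p under 0.05 with limma. The mitochondrial glycerol-3-phosphate dehydrogenase gene Gpd2, which passes electrons from glycerol-3-phosphate to the respiratory chain, had log2 signals of 8.22 and 8.71 in the controls. Its knockout values of 8.17 and 8.2 lay just under them (difference -0.28, adjusted p = 0.364 with limma). Gpd1l, a paralog of Gpd1, had 2 probe sets that differed by 0.32 and -0.02, and neither passed.

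Of the 11 genes of glycerol release by lipases, 2 rose, none fell and 9 did not pass, with a median of 0.06. Lpl, the lipase that frees fatty acids from circulating lipoproteins, went from 8.24 and 7.83 in the controls to 9.48 and 9.28 in the knockouts. This was a log2 difference of 1.345 with an adjusted p of 0.0116 from limma. Gde1, which splits glycerophosphodiesters to glycerol-3-phosphate, went from 9.38 and 9.37 to 9.88 and 9.94 (0.54, adjusted p = 0.0272 with limma). The intracellular triglyceride lipase gene Pnpla2 differed by 0.1 (adjusted p = 0.749 with limma).

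Of 10 genes that acylate glycerol-3-phosphate or act next in triglyceride synthesis, 1 rose and 1 fell, with a median of -0.13. Agpat1, which adds the next acyl chain, had log2 signals of 7.29 and 7.16 in the controls and of 8.71 and 8.47 in the knockouts (difference 1.365, adjusted p = 0.00606 with limma). Lpin1, a phosphatidate phosphatase, had 9.49 and 10.52 in the controls and 8.2 and 8.01 in the knockouts (difference -1.9, adjusted p = 0.0235 with limma). The controls of Lpin1 stood further apart from each other than the knockouts did. Gpam, the mitochondrial acyltransferase that starts the pathway, differed by 0.14 (adjusted p = 0.507 with limma).

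Of the list of 10 genes of glucose synthesis, 2 fell and none rose, with a median of -0.13. The list was not confined to the steps from glycerol, as Pck1, Mdh1 and Got1 act before dihydroxyacetone phosphate, where glycerol enters. Slc37a4, the carrier that brings glucose-6-phosphate into the endoplasmic reticulum, had log2 signals of 10.68 and 10.51 in the controls and of 10.02 and 9.8 in the knockouts (adjusted p = 0.0281 with limma). Mdh1, the cytosolic malate dehydrogenase, had 11.61 and 11.6 against 11.18 and 11.03 (adjusted p = 0.0396 with limma). Their differences were -0.685 and -0.5, and with quantile normalization Mdh1 no longer passed (-0.45, adjusted p = 0.0502 with limma). The gluconeogenic genes Pck1 and G6pc differed by -0.165 and 0.335, and neither passed (adjusted p = 0.434 and 0.373 with limma).

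**Figure D3:**
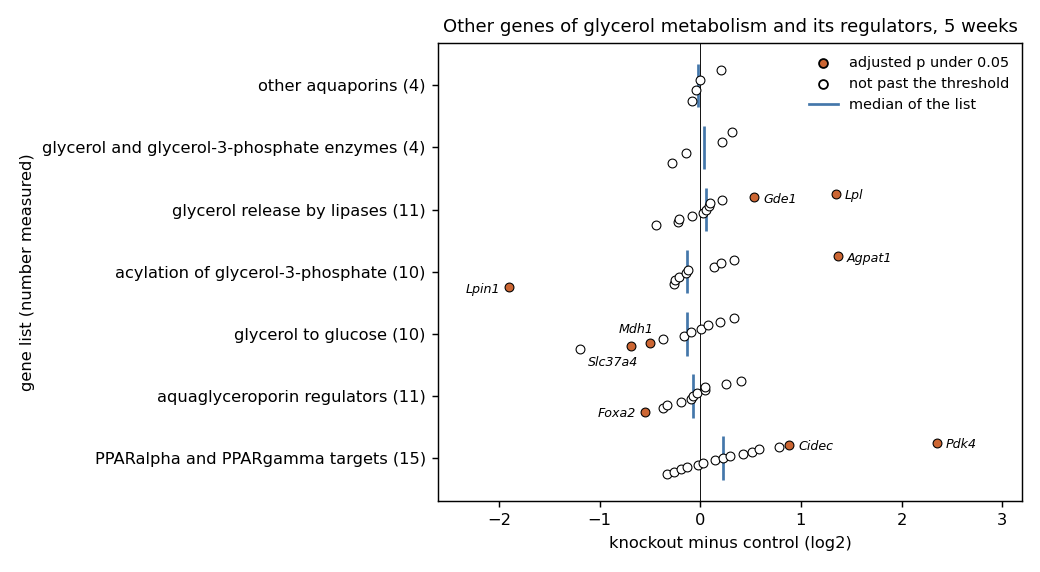
Log2 difference between knockout and control (horizontal axis) of each gene of 7 lists (vertical axis, with the number measured). Filled circles passed an adjusted p under 0.05 with limma and are named, open circles did not, and the vertical bars are list medians. Most genes lie near 0, and the 9 named genes lie in both directions.

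Among the 11 regulators known to act on aquaglyceroporin genes, 1 fell and none rose, with a median of -0.08. Foxa2, a forkhead factor of hepatocytes, had log2 signals of 7.53 and 7.43 in the controls and of 6.83 and 7.03 in the knockouts (difference -0.55, adjusted p = 0.0399 with limma). Pparg, the PPAR of fat cells, read 7.91 and 8.11 in the controls and 8.46 and 8.37 in the knockouts, a difference that did not pass (0.41, adjusted p = 0.085 with limma). Ppara, the main PPAR of hepatocytes, differed by -0.335 (adjusted p = 0.119 with limma).

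Of 15 measured PPAR targets, 2 rose, none fell and 13 did not pass, with a median of 0.23. Pdk4, an inhibitor of pyruvate dehydrogenase, went from 6.8 and 7.45 in the controls to 9.59 and 9.36 in the knockouts (difference 2.35, adjusted p = 0.00676 with limma). Cidec, a lipid droplet protein, went from 7.84 and 7.58 to 8.72 and 8.47 (difference 0.885, adjusted p = 0.0206 with limma). Cyp4a14, a fatty acid hydroxylase gene of the same list, differed by -0.26 (adjusted p = 0.236 with limma).

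Markers of other cells that carry these channels were set beside the results. Of 8 adipocyte markers, 5 were measured and none passed, with differences between -0.27 and 0.23. At an unadjusted p under 0.05, limma counted 0 of these 5, beside 4276 of all 14996 probe sets. The mean log2 signal of the adipocyte markers was 6.59 to 6.65 in the controls and 6.56 to 6.62 in the knockouts. Most of the 5 read near the arrays' median of 5.92 to 5.96, so their lack of change says little. Plin1, a fat cell lipid droplet protein, read 6.05 and 6.34 in the controls and 5.84 and 6.02 in the knockouts. Fabp4, a fatty acid-binding protein of fat cells, read 7.18 and 6.59 in the controls and 7.19 and 7.04 in the knockouts. Their part in the values of Aqp7 was not tested. The other 3 markers, Adipoq, Lep and Slc7a10, were not among the named genes and so have no value here.

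Bile duct cell markers were higher: 5 of 9 measured genes rose and none fell, with a median of 0.84. Their mean log2 signal was 6.39 to 6.61 in the controls and 7.33 to 7.45 in the knockouts. Spp1 (3.24), Cldn7 (1.32), Prom1 (1.37) and Sox9 (0.84) were among them, with adjusted p of 0.00336, 0.00576, 0.0065 and 0.0382 from limma. The bile duct keratin genes Krt7 and Krt19 differed by 0.1 and -0.315 and did not pass. At an unadjusted p under 0.05, limma counted 6 of the 9 bile duct cell markers, beside 4276 of all 14996 probe sets. The part of these cells in the values of Aqp1, Aqp4 and Aqp7 was not tested.

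Endothelial markers rose in none of 8 genes and fell in 1, Lyve1 of sinusoidal endothelium (-0.8, adjusted p = 0.0184 with limma), with mean log2 signals of 8.43 to 8.49 in the controls and 8.44 to 8.49 in the knockouts. Knockout means were higher in 6 of the 8 and lower in 2. Stab2 and Clec4g of this list differed by -0.165 and 0.07 and did not pass. At an unadjusted p under 0.05, limma counted 2 of the 8 endothelial markers, beside 4276 of all 14996 probe sets. None of 5 measured erythroid markers passed, nor did any at an unadjusted p under 0.05 (0 with limma). Their mean log2 signal was 9.13 to 9.49 in the controls and 9.2 to 9.8 in the knockouts. Their median difference was 0.18, and their part in the values of Aqp1 was not tested.

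Markers of Kupffer cells and macrophages rose in 7 of 8 genes, with mean log2 signals of 8.17 to 8.24 in the controls and 9.05 to 9.3 in the knockouts. Among the 8 markers of stellate cells and fibroblasts 3 rose, with means of 7.88 to 8.17 and 8.51 to 8.61, and neutrophil and lymphocyte markers in 2 of 5, with means of 5.69 to 5.84 and 6.27 to 6.76. None of these markers fell. At an unadjusted p under 0.05, limma counted 8 of 8 macrophage, 5 of 8 stellate cell and 2 of 5 leukocyte markers. The same count over all probe sets was 4276 of 14996. Of the 6 kidney and pancreas markers 1 was measured, Cela1, and it did not pass (-0.09, adjusted p = 0.690 with limma). Lpl, one of the lipase genes that rose, is also made by macrophages. The part of these cells in the results was not tested.

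**Figure D4:**
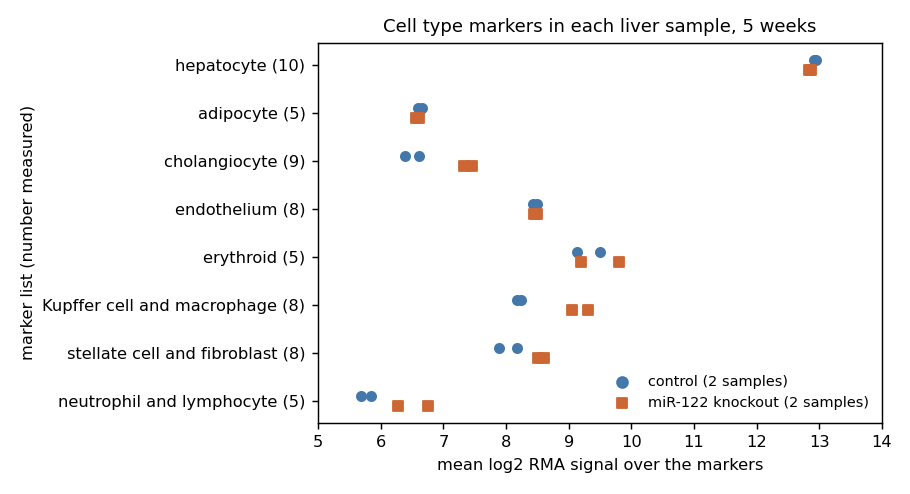
Mean log2 RMA signal over the measured markers of each cell type (horizontal axis) in each of the 2 controls (circles) and 2 knockouts (squares). Means of the bile duct, macrophage, stellate cell and leukocyte markers are higher in both knockouts. Those of the adipocyte markers lie at 6.56 to 6.65 in all 4 samples, and most of these markers are dim.

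The genes whose values ran most like those of Aqp7 were sought among all named genes, by the Euclidean distance between log2 values centred on each gene's mean over the 4 samples. The nearest were Spp1 (distance 0.158), alpha-fetoprotein Afp (0.185), LOC433762 (0.246), Sprr1a (0.290) and Plet1 (0.292). Afp, a fetal liver protein, read 5.43 and 5.73 in the controls and 8.7 and 9.02 in the knockouts. For Aqp4, the nearest were the mitochondrial carbonic anhydrase gene Car5a (0.179), Hsd3b2 (0.187), the major urinary protein gene Mup3 (0.209), the acetyl-CoA synthetase gene Acss2 (0.214) and the epidermal growth factor receptor gene Egfr (0.310). Egfr read 11.97 and 11.47 in the controls and 10.36 and 10.59 in the knockouts. With 4 samples in 2 groups, this measure takes in the size of the difference between genotypes as well as its shape.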

How the data were processed

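The authors' deposited values are log2 signals per probe set made with RMA in Affymetrix Expression Console, per the submitters' processing notes; RMA corrects background, normalizes by quantiles and summarises probes. The sources used here name no genome build or software version. A sample table gave 35556 probe sets in each of the 4 samples, to 2 decimals. The authors' result table, with group log2 means, named 14996 of them, selected by a rule not given. In every row the higher of the 2 group means was at least 4.94. The means recomputed from the samples lay within 0.005 of the authors' in every row. Another 4 columns of single arrays match no label and were not used. The number of arrays limits the precision.

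Names were updated through RefSeq (GRCm38.p6): 13100 probe sets by accession, 1014 by symbol and 488 by synonym, while 386 kept the table's name and 8 with several symbols were left out. The probe set of the highest mean stood for a gene. The members and lists were chosen with earlier results of these data known. Tests planned for the 8-week samples were not run, because no table used here names their probes. Lists were instead tested at 5 weeks, a choice made after seeing the files, with limma 3.58.1 in R 4.3.3 (lmFit, eBayes) on the 14996 probe sets, tested on simulated data. Likeness was planned as a correlation over the 8-week samples and was replaced by a distance. Named were all 8 genes and, per list, at most 4 that passed and 2 that did not. Alternatives were another scaling, a filter on dim probe sets, other limma settings, a replicate block and leaving out each sample.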

Additional observations from a re-analysis of the deposited data

How the results depend on the processing

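Centring was on each sample's median over the 14996 named probe sets. Of the differences of the 8 genes, only that of Gyk turned, under centring, as given above. Centring, the authors' deposited group means and a pairing by number (replicate block) left all others in their direction. Leaving out 1 sample at a time gave 6 to 8 of the 8 genes without overlap (8 without control replicate 1), against 5 with all samples, since a group of 1 has no spread. Centring kept the count at 5. With 1 sample left out at a time, the differences ran from 2.94 to 3.45 for Aqp7 and from -1.76 to -1.12 for Aqp4. Of all probe sets, limma called 1304 higher and 490 lower (72.7% higher). Centring gave 988 and 702 (58.5% higher), and quantile normalization 1048 and 566, with 5 pathway genes higher and 3 lower. With the replicate block 321 were higher and 69 lower. Of the pathway genes it then called Lpl, Agpat1, Cidec and Pdk4 and 0 lower, with adjusted p of 0.0612 to 0.107 for the 5 others. The numbers do not pair the samples by any label, and the deviations of same-numbered samples correlated at 0.0512. With the unnamed probe sets in the limma fit, 0 were called in either direction, pathway genes included (5640 probe sets at an unadjusted p under 0.05, without the trend and robust options). Leaving out any 1 sample gave 0 calls as well (2396 to 3876 at an unadjusted p under 0.05), and the lone sample of a group was then assumed to vary like the other group. The cause was not tested. The 8-week alternatives were not run.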
